A study of Mus musculus with 4 samples.

Results

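The genes described here are 34 enzymes and regulators of sterol and fatty acid synthesis, listed by symbol and found among the 32285 genes of the RNA data. They comprise 18 enzymes of the sterol branch, 10 enzymes of the fatty acid branch and 6 regulators. The study paired single-cell RNA libraries with libraries of heritable DNA tags from MK, a mouse keratinocyte line kept in E low medium with fetal bovine serum, treated with Dox and sorted for GFP, which marks tagged cells. One sample pair is labelled MK and the other Diff_MK, and both carry the same line, cell type and Dox labels, with no label that spells out Diff. Each label has 1 RNA and 1 tag library, so no test between the groups was possible, and every interval on a level, ratio or share is a 95% interval that covers counting error only.

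Cells build sterols and fatty acids from acetyl-CoA. The mevalonate pathway joins acetyl-CoA units into isoprenoids and then squalene, which later enzymes close into a ring and trim to cholesterol. Acetyl-CoA carboxylase and fatty acid synthase make palmitate, which elongases and desaturases lengthen and unsaturate. SREBP transcription factors drive many of these genes. Scap and Insig proteins hold them in the endoplasmic reticulum when sterols are plentiful, and they reach the nucleus when sterols run low. Keratinocytes make cholesterol and fatty acids for the lipid barrier of the epidermis.

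After filtering, the RNA libraries held 7175 MK and 6912 Diff_MK cells with 115181759 and 103885150 UMIs (unique molecular identifiers, which count captured transcripts), and median depths of 15599 and 14223.5 UMIs per cell. Of the cell barcodes, 9 occurred in both. All 8 basal keratinocyte markers were at 10 CPM or more (CPM scales a gene's UMIs by all UMIs of its library), and the list summed to 8329 CPM in MK and 17521 CPM in Diff_MK, with 4 markers higher and 4 lower. Spinous markers summed to 1894 and 3105 CPM, granular markers to 171 and 325 CPM and stress keratinocyte markers to 2318 and 4174 CPM. Of those at 10 CPM or more, 5 spinous, 6 granular and 4 stress markers were higher. Lower were 1 spinous, 1 granular and 2 stress markers, the granular one being Lor, at 83.8 and 30.6 CPM. S phase markers summed to 1121 and 645 CPM and G2/M phase markers to 1894 and 1424 CPM, with 10 of 10 lower in both lists. Of 10 sebocyte markers, which mark lipid-producing cells of the skin, 8 were below 1 CPM in both libraries and Awat1 was at 0, and the list summed to 40.5 and 28.6 CPM. Of 6 adipocyte markers 5 were below 1 CPM, Fabp4 being the exception, with sums of 18.1 and 9.35 CPM. The sums were 0.573 and 0.347 CPM for fibroblast, 2.52 and 2.38 CPM for melanocyte, 6.43 and 5.26 CPM for immune and 1.57 and 2.15 CPM for endothelial markers. The part of the keratinocyte state and cell cycle markers in the differences between libraries was not tested.

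The first comparison asked how the members' levels differed between the libraries. Of the 34 members, 31 had a higher CPM in Diff_MK, and 3 a lower one. The 31 include Tm7sf2, Acss2, Scd1 and Lpin1, which were below 10 CPM in both libraries. Of all 7736 genes that reached 10 CPM in either library, 29.9% were higher and 70.1% lower. Of the 30 members past that minimum, 11 were at least 2-fold higher, against 1.82% of all genes, and 0 were at least 2-fold lower, against 0.776%. All 18 sterol enzymes were higher, 9 of them at least 2-fold. In the fatty acid branch 9 of 10 were higher and 1 at least 2-fold, and among the regulators 4 of 6 were higher and 1 at least 2-fold. The counting interval of the ratio lay above 1 for 29 members, below 1 for 1 member and held 1 for 4. The members were listed with results of these libraries known, so these counts are a description and no independent support.

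Over members that reached 5 CPM in either library, the median log2 ratio of Diff_MK over MK was 1.04 for 17 sterol enzymes (order-statistic interval over members, 0.53 to 1.37). It was 0.33 for 9 fatty acid enzymes (0.05 to 0.93) and 0.12 for 6 regulators (-0.24 to 1.44), and -0.16 over all genes past the same minimum. Summed over the branch, the sterol enzymes had 814 CPM in MK and 1664 CPM in Diff_MK, a ratio of 2.04 (2.03 to 2.06). The fatty acid enzymes had 429.8 and 658 CPM, a ratio of 1.53 (1.51 to 1.55). Scd2 alone gave 181.8 and 347 CPM of these sums, with a ratio of 1.91. The regulators had 179.7 and 195 CPM, a ratio of 1.08 (1.06 to 1.11), and outside the S and G2/M phase-like clusters described below their summed log2 ratio was -0.02.

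**Figure D1:**
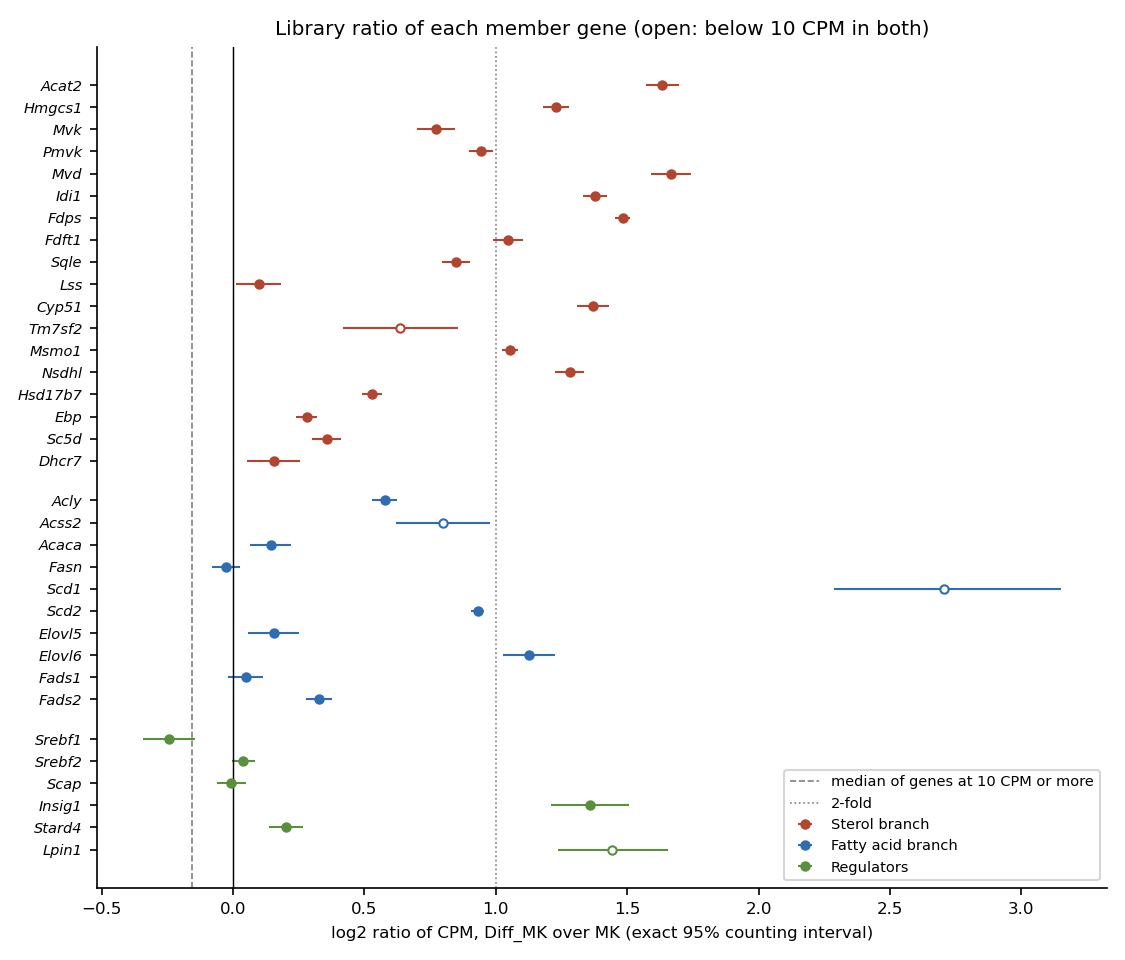
Log2 ratio of CPM, Diff_MK over MK, for each of the 34 members by branch (points; bars, exact 95% counting intervals; open points, below 10 CPM in both; 1 library per group). The dashed line is the median of all genes at 10 CPM or more and the dotted line 2-fold; all 18 sterol enzymes lie to the right of the solid line of equal levels, and Fasn, Srebf1 and Scap to its left.

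The enzymes up to farnesyl diphosphate were all higher in Diff_MK. Acat2, the thiolase that joins the first acetyl-CoA units, had 24.2 CPM in MK and 75.2 CPM in Diff_MK, a ratio of 3.10 (2.97 to 3.24). Hmgcs1, the HMG-CoA synthase, had 43.7 and 102.5 CPM, a ratio of 2.34 (2.27 to 2.42). The kinases Mvk, at 22.0 and 37.6 CPM, and Pmvk, at 54.0 and 103.9 CPM, fell short of 2-fold with ratios of 1.71 and 1.92. Mvd, the decarboxylase that makes isopentenyl diphosphate, had 16.6 and 52.6 CPM and the highest ratio of the branch, 3.18 (3.01 to 3.35). Its product is isomerised by Idi1, which had 44.3 and 115.2 CPM, a ratio of 2.60. Fdps, which builds farnesyl diphosphate, had 123 and 344 CPM, a ratio of 2.80 (2.74 to 2.85). On GRCm38, Mvd (ENSMUSG00000006517) spans chromosome 8, 122433601 to 122443422, and Fdps (ENSMUSG00000059743) chromosome 3, 89093588 to 89101959, both on the minus strand.

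From squalene onward the ratios were uneven. Fdft1, squalene synthase, had 33.4 and 68.9 CPM, a ratio of 2.06, and Sqle, the squalene epoxidase, 41.5 and 74.6 CPM, a ratio of 1.80. Lss, which closes the ring to lanosterol, had 19.3 and 20.6 CPM and the lowest ratio of the branch, 1.07 (1.01 to 1.14). Enzymes that remove the methyl groups of lanosterol came next. Cyp51 had 26.9 and 69.5 CPM (2.59-fold), Msmo1 had 111 and 230.4 CPM (2.08-fold) and Nsdhl had 32.7 and 79.4 CPM (2.43-fold). Hsd17b7, the ketoreductase of the same steps, had 78.8 and 113.8 CPM (1.44-fold). Ratios were lower at the last steps, with the isomerase Ebp at 83.4 and 101.3 CPM (1.21-fold) and the desaturase Sc5d at 42.9 and 54.9 CPM (1.28-fold). Dhcr7, a final reductase, had 14.0 and 15.6 CPM, a ratio of 1.11 (1.04 to 1.19). Tm7sf2, a sterol reductase, was below the 10 CPM minimum at 2.57 and 3.99 CPM. The directions of Lss and Dhcr7 depended on the cells compared: outside the S and G2/M phase-like clusters their log2 ratios were -0.10 and -0.07. In the pooled cells of clusters 1, 2 and 4, which held both libraries in unlike proportions, Mvd (-0.025), Tm7sf2 (-0.24) and Sc5d (-0.37) were lower as well. Taken cluster by cluster, Mvd was lower only in cluster 2, at 20.7 CPM in MK and 16.3 CPM in Diff_MK. Lss, Tm7sf2 and Sc5d were lower in clusters 2 and 4 but not in cluster 1.

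In the fatty acid branch the ratio was near 1 for the synthase and higher for some enzymes around it. Acly, which makes cytosolic acetyl-CoA from citrate, had 56.4 and 84.2 CPM, a ratio of 1.49 (1.44 to 1.54), and Acss2, which makes it from acetate, 3.67 and 6.39 CPM. Acaca, the carboxylase of the committed step, had 23.4 and 25.8 CPM, a ratio of 1.11 (1.05 to 1.17). Fasn, the fatty acid synthase, had 53.8 and 52.8 CPM, and its ratio of 0.982 (0.947 to 1.02) was not distinguishable from 1 within counting error. Elovl6, which lengthens palmitate to stearate, had 10.8 and 23.5 CPM, a ratio of 2.18 (2.04 to 2.34), and was the branch member at least 2-fold higher past the minimum. Scd2, a delta-9 desaturase, had 181.8 and 347 CPM, a ratio of 1.91 (1.87 to 1.94). Its paralog Scd1 had 0.469 CPM from 54 UMIs and 3.06 CPM from 318 UMIs, a ratio of 6.53 (4.88 to 8.88) but below the minimum. How reads were divided between these paralogs was not tested. Elovl5, an elongase of polyunsaturated chains, had 15.3 and 17.1 CPM, and the desaturases Fads1 and Fads2 had 32.5 and 33.5 CPM and 51.6 and 64.8 CPM. Their ratios ran from 1.03 for Fads1 to 1.25 for Fads2.

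Srebf2 and Scap had similar levels in both libraries, and Srebf1 was lower in Diff_MK. Srebf2, whose protein favours sterol genes, had 75.9 and 77.9 CPM, a ratio of 1.03 (0.996 to 1.06), and the escort gene Scap had 47.9 and 47.7 CPM, a ratio of 0.996 (0.958 to 1.03). Srebf1, whose proteins favour fatty acid genes, had 16.9 and 14.2 CPM, and its ratio of 0.844 (0.789 to 0.904) was the one whose counting interval lay below 1. SREBP proteins were not measured. Insig1, the sterol-responsive anchor of Scap, had 4.64 and 11.9 CPM, a ratio of 2.56 (2.31 to 2.84). Lpin1, a phosphatidate phosphatase that also affects SREBP, was below the minimum at 2.30 and 6.26 CPM. Stard4, a cholesterol carrier, had 32.1 and 37.0 CPM, a ratio of 1.15 (1.10 to 1.20), and a log2 ratio of -0.20 outside the S and G2/M phase-like clusters.

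Promoter sequences were searched for letters that SREBP and its partner factors are known to bind, because the sterol enzymes differed together. RefSeq windows on GRCm38.p6, from 250 bases before to 50 after the start, were matched for 27 of 34 members. The NF-Y box CCAAT, on either strand, was found in 14 of 15 sterol genes (93.3%), 4 of 7 fatty acid genes (57.1%) and 3 of 5 regulators (60.0%), against 42.3% of 6200 genes that reached 10 CPM and 41.1% of all 27025. The Sp1 box GGGCGG was in 14 of 15 sterol genes, 3 of 7 fatty acid genes (42.9%) and 4 of 5 regulators (80.0%), against 73.7% of the 6200. The SREBP site TCACNCCAC was in 1 of 27 members, Hmgcs1, against 1.35%, and the E-box ATCACGTGA in 0 of 27, against 0.887%. Genes with several starts had several chances of a match. A match describes the letters and not binding, and no match says only that these letters are not in the window. The sequences below show Hmgcs1 for its SREBP site, Mvd, Nsdhl and Mvk as sterol genes with more than 1 CCAAT box, Fasn as a fatty acid gene with such boxes and a ratio near 1, and Acat2 as the sterol gene with none. Each lies before the RefSeq start and reads 5′ to 3′ on the gene's strand, with CCAAT, its complement ATTGG and the SREBP site in capitals.
Hmgcs1, chr13:119690101-119690350, plus strand: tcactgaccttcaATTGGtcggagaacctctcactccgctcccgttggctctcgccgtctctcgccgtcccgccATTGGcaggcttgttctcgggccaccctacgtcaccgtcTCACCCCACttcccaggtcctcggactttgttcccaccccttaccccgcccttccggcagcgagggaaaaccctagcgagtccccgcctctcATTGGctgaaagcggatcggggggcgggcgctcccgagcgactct
Mvd, chr8:122443423-122443542, minus strand: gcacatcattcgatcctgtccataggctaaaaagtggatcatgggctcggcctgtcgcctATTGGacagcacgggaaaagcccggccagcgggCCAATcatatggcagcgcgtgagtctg
Nsdhl, chrX:72918401-72918520, plus strand: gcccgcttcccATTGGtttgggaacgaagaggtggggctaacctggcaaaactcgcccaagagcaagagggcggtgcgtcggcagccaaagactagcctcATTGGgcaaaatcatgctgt
Mvk, chr5:114444149-114444268, plus strand: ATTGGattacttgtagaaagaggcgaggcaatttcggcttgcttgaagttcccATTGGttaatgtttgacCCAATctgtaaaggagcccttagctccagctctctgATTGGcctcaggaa
Fasn, chr11:120824548-120824667, minus strand: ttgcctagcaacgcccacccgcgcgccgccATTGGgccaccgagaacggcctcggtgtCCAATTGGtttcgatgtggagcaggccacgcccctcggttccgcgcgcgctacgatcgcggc
Acat2, chr17:12960726-12960845, minus strand: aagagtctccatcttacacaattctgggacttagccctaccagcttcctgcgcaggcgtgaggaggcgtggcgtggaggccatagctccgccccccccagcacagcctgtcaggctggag
In Hmgcs1 the SREBP site begins 137 bases before the start, between CCAAT boxes that begin 176 and 45 bases before it. The Mvd boxes begin 60 and 27 bases before the start. In Fasn, boxes on opposite strands overlap, beginning 62 and 59 bases before the start.

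The next question was whether all cells differed or some. For equal depth, 7500 UMIs were drawn from every cell, leaving aside shallower cells (337 in MK, 635 in Diff_MK), and the UMIs of each branch were summed per cell. The sterol sum had a median of 6 UMIs in MK cells (5th to 95th percentile, 2 to 12) and 10 UMIs in Diff_MK cells (2 to 34). The 5th percentiles were thus equal at these coarse counts and the 95th far apart, while the 25th were 4 UMIs in MK and 5 UMIs in Diff_MK. The fatty acid sum had medians of 3 UMIs (0 to 7) and 4 UMIs (1 to 12), and the regulator sum a median of 1 UMI (0 to 4) in both. The Fano factor, the variance over the mean, is near 1 for counting error alone. It was 1.91 in MK and 7.77 in Diff_MK cells for the sterol sum, 1.41 and 2.43 for the fatty acid sum and 1.36 and 1.27 for the regulators. Among single genes, Fdps had 1.35 and 3.32, Scd2 1.42 and 2.45, and Msmo1 1.28 and 2.32.

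**Figure D2:**
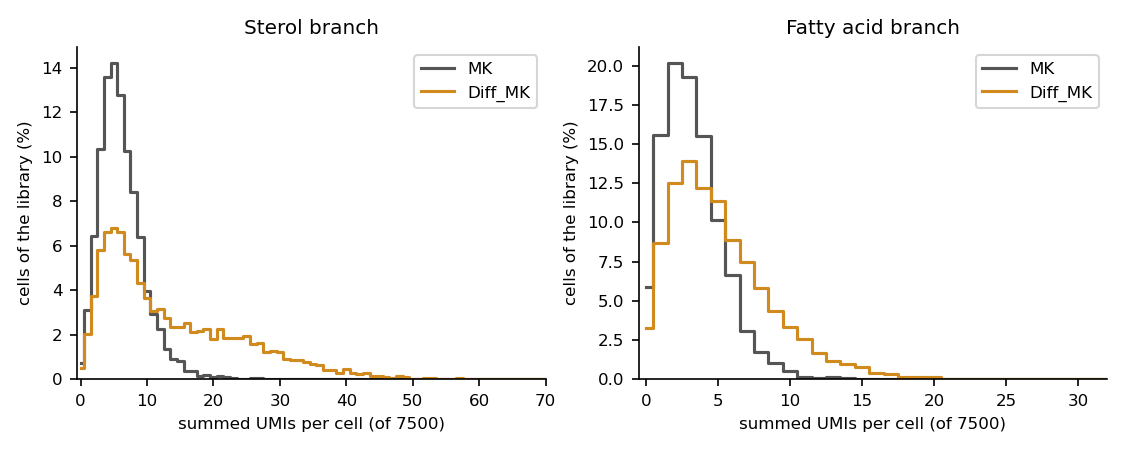
Share of cells (y axes, percent of the library) by the summed UMIs (x axes) of the sterol and fatty acid branches, each cell thinned to 7500 UMIs, in 6838 MK and 6277 Diff_MK cells. For the sterol branch the 5th percentile is 2 UMIs in both libraries, and the 95th percentile is 12 UMIs in MK and 34 UMIs in Diff_MK.

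Detection was compared at the same drawn depth. In MK, 55.9% of cells (54.7 to 57.1%) had an Fdps UMI, and in Diff_MK 75.6% did (74.5 to 76.7%); at full depth these shares were 77.6% and 87.6%. Acat2 was detected in 16.3% (15.5 to 17.2%) and 37.6% (36.4 to 38.8%), against 30.7% and 53.6%. For Fasn the shares were 31.3% (30.2 to 32.4%) and 29.9% (28.8 to 31.1%), against 52.4% and 46.9%. Insig1 was found in 3.70% (3.27 to 4.17%) and 8.41% (7.74 to 9.13%), against 6.86% and 14.9%. In all, 30 members had a higher share in Diff_MK at the drawn depth, as did 27.4% of the 7736 genes. The libraries held no cell type known to lack these genes, so the share that free RNA gives was not measured.

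Within Diff_MK, the sterol enzymes varied together from cell to cell. Over 6277 thinned cells, Pearson's r of log2(UMIs + 1) between each sterol gene and the sum of the rest of its branch had a median of 0.41, from 0.07 for Tm7sf2 to 0.69 for Fdps. Idi1 had 0.54, Msmo1 0.53 and Acat2 0.50. Against the fatty acid sum the median was 0.28, and r was lower there than with the sterol sum for 18 of 18 genes. The 10 fatty acid genes had a median of 0.13 with the sterol sum and 0.11 with the rest of their own branch. Of them, 3 had the higher r with their own branch. The sterol sum held more UMIs, a mean of 13.6 per cell against 5.15. Single genes differed too, with a mean of 0.03 UMIs for Tm7sf2 and 2.90 for Fdps. The part of these counts in the r values was not tested. Among the fatty acid genes, Scd2 had an r of 0.53 with the sterol sum and Acly 0.29, while Fasn had 0.15, Acaca 0.07 and Fads1 -0.01. Of the regulators, Stard4 had 0.22, Insig1 0.20, Srebf2 0.06 and Scap -0.05. The sterol and fatty acid sums had an r of 0.55 in Diff_MK and 0.13 in MK cells. Scd2 had a mean of 2.78 of the 5.15 UMIs of the fatty acid sum in Diff_MK cells. Its part in the r of the sums was not tested. In MK cells the sterol genes had a median of 0.09, too weak at these sparse counts to be read as a finding. The cells share a library, and depth before thinning had an r of -0.34 with the sterol sum in Diff_MK and -0.04 in MK. The part of depth in these values was not tested.

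Outside the pathway, the genes most like the sterol sum over Diff_MK cells, out of 6345 with a mean of 0.1 UMIs or more, were the galectin gene Lgals7 (r = 0.57) and the keratin gene Krt19 (0.55). They were followed by Dbi, which encodes an acyl-CoA-binding protein (0.50), the basal keratin gene Krt5 (0.48), Fam162a (0.47), and Krt15, Ndrg1 and the glycolytic gene Aldoa (0.45 each). In MK cells, out of 6636 genes, Dbi came first at 0.21, then Ly6d (0.18), Krt16 (0.17), Krt6a and Dmkn (0.16 each), and Tuba4a and Fabp5 (0.15 each). The MK values are weak.

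Levels were then compared across clusters of cells. The libraries were clustered together without the 138 member and other listed lipid genes, so those genes placed no cell, although genes that vary with them could. Names were rebuilt from markers, and most clusters are given by number with their 3 leading genes. Leading genes were ranked with the members included. Elovl6 and Idi1 thus lead cluster 7 by their own levels and say nothing further of its identity. Cluster 0 (Hist1h1b, Hist1h2ae, Mybl2) was S phase-like and cluster 3 (Aspm, Cenpf, Nusap1) G2/M phase-like, each with 10 of 10 markers raised at least 1.5-fold over all other cells. They held 2111 and 1671 MK cells but 38 and 31 Diff_MK cells, so that leaving them out removed almost only MK cells. Cells with many G2/M transcripts remained: these markers summed to 3244 CPM in cluster 10, where 10 of 10 were also raised but none was among the 10 leading genes, and to 2384, 2404 and 1793 CPM in the Diff_MK cells of clusters 4, 5 and 7, against 3310 CPM in cluster 3. Clusters 1 (Lor, Lcn2, Tchh), 2 (Krt16, Cnfn, Sprr2d) and 4 (Tmem176a, Tmem176b, Arhgdib) held many cells of both libraries. Clusters 5 (Pclaf, Akap12, Fn1), 6 (Krt15, Lgals7, Prl8a9), 7 (Elovl6, Ddit4, Idi1), 8 (Gm10638, Clu, Rin2), 9 (Lce3c, Crct1, Calm4) and 10 (Krt7, Edn2, Tns1) held almost only Diff_MK cells, so that there cluster and library cannot be told apart.

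The summed sterol level was similar over the 5 MK clusters of 50 or more cells and not over the 9 such Diff_MK clusters. In MK it ran from 710.02 CPM (696 to 724) in cluster 4 to 912 CPM (899 to 924) in cluster 1, a span of 1.28-fold. In Diff_MK it ran from 652 CPM (638 to 666) in cluster 4 to 3438 CPM (3395 to 3482) in cluster 9, a span of 5.27-fold. Below cluster 9 came cluster 6 at 3100 CPM (3069 to 3130), cluster 10 at 2555 CPM (2459 to 2654), cluster 7 at 2365 CPM (2343 to 2388) and cluster 8 at 1840 CPM (1806 to 1874). Cluster 1 had 1273 CPM (1249 to 1298), cluster 2 had 899 CPM (882 to 916) and cluster 5 had 871 CPM (859 to 883). Neighbours in this order had separate counting intervals, except clusters 2 and 5. The fatty acid sum spanned less, from 374 CPM in cluster 4 to 1099 CPM in cluster 9 (2.94-fold). Scd2 alone gave 153 CPM of this sum in cluster 4 and 752 CPM in cluster 9. Cluster 7 had 923 CPM, of which Scd2 gave 452 CPM. The regulator sum was highest in cluster 1 of either library, at 259 CPM in MK and 309 CPM in Diff_MK.

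**Figure D3:**
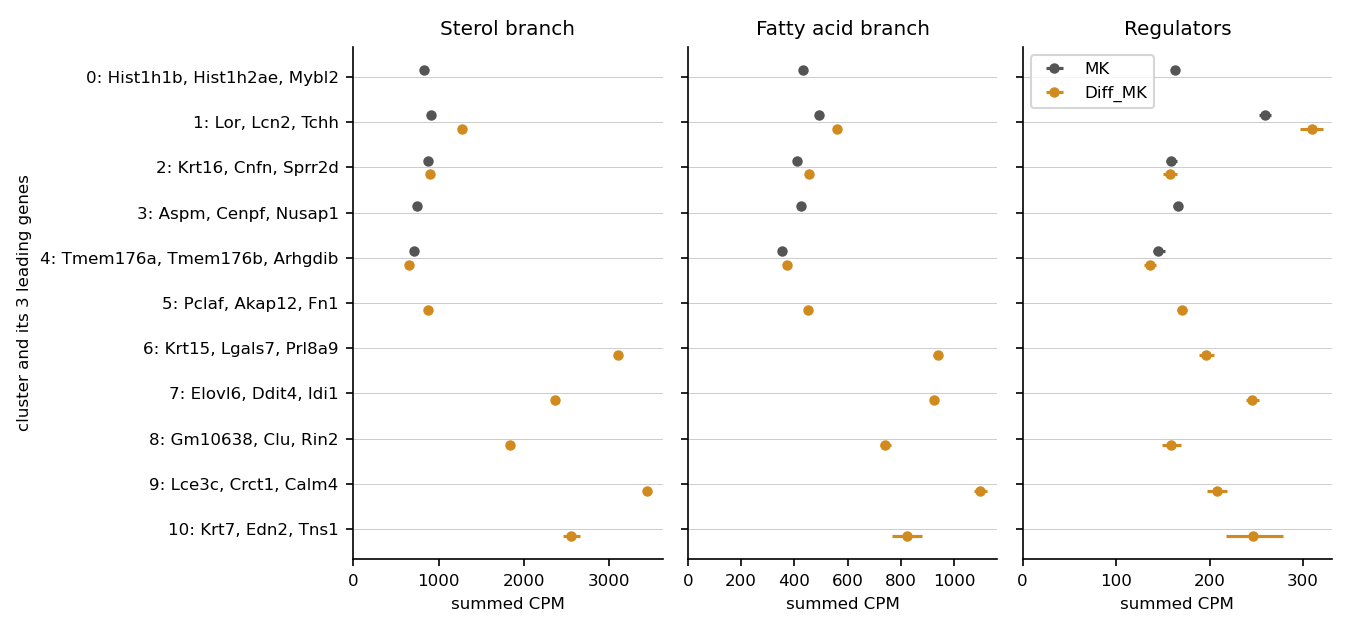
Summed CPM of the sterol branch, fatty acid branch and regulators in each cluster of 50 or more cells of a library (points, pooled cells; bars, exact Poisson 95% intervals). Diff_MK clusters 6 to 10 lie between 1840 and 3438 CPM for the sterol branch, and the MK clusters at or below 912 CPM.

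The clusters with high sterol sums differed in other markers. G2/M phase markers summed to 63.5, 79.1 and 99.1 CPM in clusters 6, 8 and 9, but to 1793 and 3244 CPM in clusters 7 and 10. They summed to 221 CPM in the Diff_MK cells of cluster 2. Cluster 9 was granular-like, with 5 of 7 granular, 6 of 6 spinous and 4 of 6 stress markers raised by that factor. Of 8 basal markers, 4 were so raised in clusters 6 and 8, 3 in cluster 9 and 2 in cluster 10, and the list summed to 36733, 28581, 42853 and 17013 CPM there. Sebocyte markers summed to 6.82, 12.1 and 18.5 CPM in clusters 9, 6 and 8 and to 35.0 and 38.4 CPM in clusters 7 and 10, against 27.5 to 41.4 CPM in the other Diff_MK clusters. Median depth was 10252 UMIs in cluster 6, 9873 in cluster 8 and 14971 in cluster 7, against 18356 in cluster 5. The part of these markers and of depth was not tested.

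Over the Diff_MK clusters the span of single sterol genes had a median of 5.30-fold, against 1.505-fold over the MK clusters, and 13 of 18 were highest in cluster 9 and 13 of 18 lowest in cluster 4. Cyp51 spanned most, from 19.7 CPM in cluster 4 to 192 CPM in cluster 9 (9.74-fold). Fdps ran from 91.1 CPM in cluster 4 to 789 CPM in cluster 6 and 764 CPM in cluster 9. Ebp spanned least, from 77.5 to 152 CPM (1.97-fold). Sc5d set cluster 9, at 145 CPM, apart from clusters 6, 7, 8 and 10, at 63.3 to 75.7 CPM. Lss was highest in cluster 1, at 36.9 CPM, and had 16.3 CPM in cluster 6.

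The fatty acid genes had no single pattern over the Diff_MK clusters. Scd2 had 752 CPM in cluster 9 and 153 CPM in cluster 4, and Acly had 161 CPM in cluster 9 and 45.5 CPM in cluster 1. Elovl6, itself a leading gene of cluster 7, was highest there, at 52.5 CPM, and lowest in cluster 1, at 5.11 CPM. Fads1 and Fads2 were lowest in cluster 9, at 7.11 and 42.2 CPM. Their highest levels were 49.4 CPM in cluster 1 and 112 CPM in cluster 10. Fasn was highest in cluster 1, at 101.4 CPM, as in MK at 84.3 CPM, and had 45.8 CPM in cluster 9. Among the regulators, Srebf2 and Stard4 were also highest in cluster 1, at 129 and 85.0 CPM in Diff_MK and 102 and 74.7 CPM in MK. Insig1 had 13.9 to 25.9 CPM in clusters 6 to 10, 17.05 CPM in cluster 1 and 3.63 to 4.65 CPM in clusters 2, 4 and 5. Srebf1 stayed between 11.3 and 23.1 CPM.

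**Figure D4:**
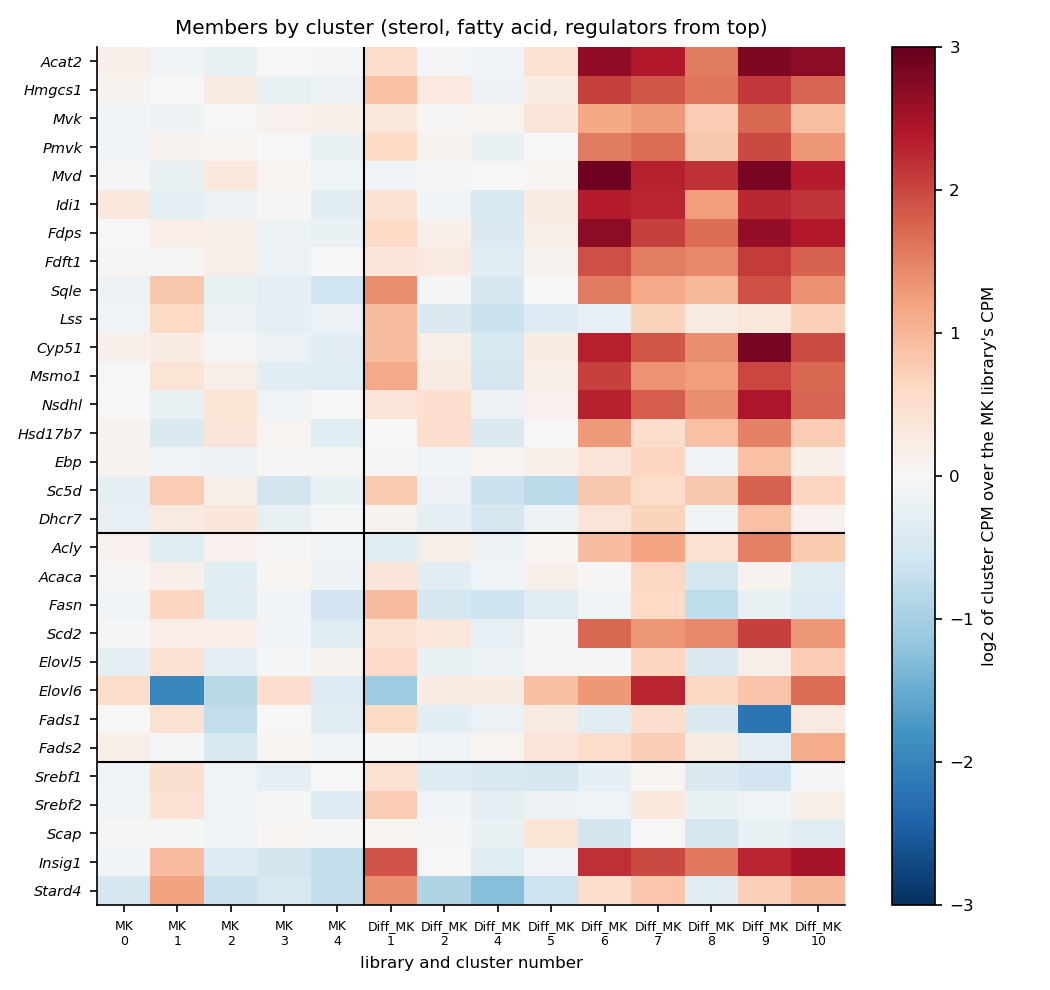
Level of the 30 members at 10 CPM or more (rows, by branch) in clusters of 50 or more cells of each library (columns), as log2 of CPM relative to the MK library (colour). Most sterol enzymes, Scd2 and Insig1 are high in Diff_MK clusters 6 to 10, while Fads1 is low in cluster 9, at 7.11 CPM.

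Within the clusters that held both libraries the sterol ratio was above 1 in cluster 1, near 1 in cluster 2 and below 1 in cluster 4. In each it was below the 2.04 of the whole libraries. In cluster 1 the sterol sum was 912 CPM in 1421 MK cells and 1273 CPM in 500 Diff_MK cells, a ratio of 1.40 (1.36 to 1.43), and 17 of 18 enzymes were higher, against 49.6% of all genes there. In cluster 2 it was 878 and 899 CPM, a ratio of 1.02 (0.999 to 1.05), with 12 of 18 higher against 33.8%. In cluster 4 it was 710.02 and 652 CPM, a ratio of 0.919 (0.892 to 0.946), with 4 of 18 higher against 42.9%. In these clusters 0 sterol enzymes were at least 2-fold higher, against 1.13%, 0.663% and 0.677% of all genes. The fatty acid ratios were 1.14 (1.10 to 1.18), 1.11 (1.07 to 1.15) and 1.05 (1.01 to 1.10). Over these 3 clusters together, a choice made after the clusters were seen, 22 members were higher and 1 at least 2-fold higher, against 39.0% and 0.642% of all genes in the same cells, and the sterol median log2 ratio was 0.12.

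Tags allowed the comparison within clones, sets of cells that share a leading tag. Identical tags with 20 or more cells in both libraries gave 16 shared clones, with 1002 MK and 1533 Diff_MK cells. The sterol sum was higher in Diff_MK in 16 of 16, with ratios from 1.21 to 2.60 and a median of 1.85, and at least 2-fold higher in 6. The clone with most cells, 280 MK and 539 Diff_MK, had 814 and 1956 CPM. The clone of lowest ratio, with 26 and 61 cells, had 747 and 906 CPM. The fatty acid sum was higher in 16 of 16 (median ratio 1.46, range 1.04 to 2.07) and the regulator sum in 13 of 16 (median 1.17, range 0.826 to 1.71). The part of Scd2 in the fatty acid sums of the clones was not tested. Clones of 1 library are not replicates, and whether each shared tag marks a single ancestor was not tested.

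**Figure D5:**
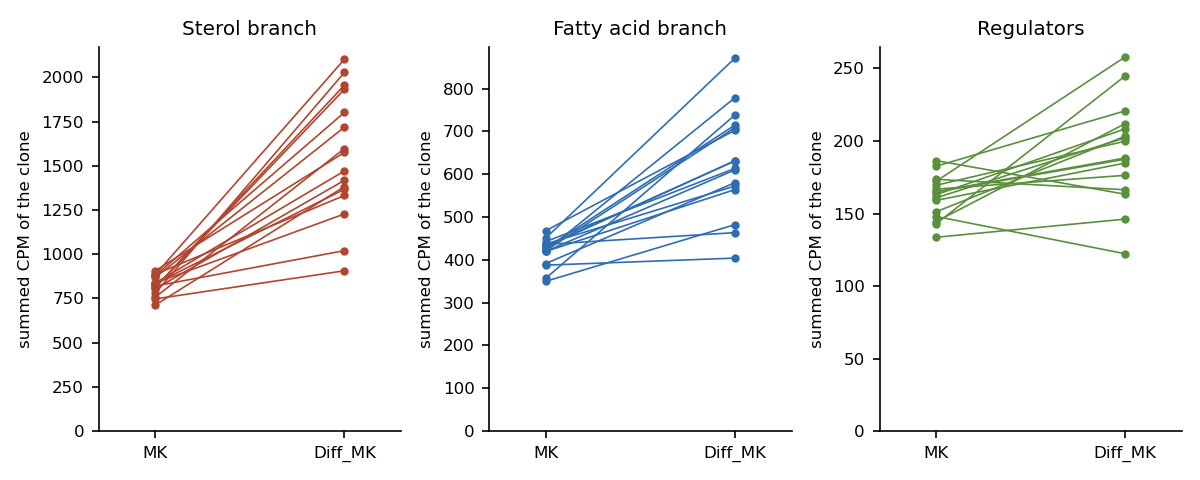
Summed CPM of the sterol branch, fatty acid branch and regulators in the 16 clones with 20 or more cells in both libraries, each clone a line from its MK to its Diff_MK cells. The sterol sum is higher in Diff_MK in 16 of 16 clones, with ratios from 1.21 to 2.60.

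Clones also spanned a wider range of sterol levels in Diff_MK. Over 46 MK clones of 20 or more cells the sterol sum ran from 667 to 975 CPM (median 805, span 1.46-fold). Over 50 Diff_MK clones it ran from 822 CPM (745 to 905) in a clone of 31 cells to 2670.03 CPM (2491 to 2859) in a clone of 21 cells, with a median of 1492 CPM and a span of 3.25-fold. With 50 or more cells, 16 MK clones spanned 1.22-fold and 25 Diff_MK clones 2.36-fold. The fatty acid sum spanned 1.48-fold in MK and 2.42-fold in Diff_MK over clones of 20 or more cells.

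Other lipid genes were grouped in 8 lists by role. Of their genes at 10 CPM or more, 0 were past 2-fold in either direction, which at 1.82% and 0.776% of all genes is near the background and says nothing particular of the lists. Genes below that minimum were not counted. In SREBP processing and partner factors, 2 of 12 genes were higher (median log2 ratio -0.30), with Insig2, the paralog of Insig1, at 41.8 and 43.7 CPM. In the branches to other isoprenoids, 5 of 11 were higher (-0.04), with Fnta, a farnesyltransferase subunit, at 61.0 and 64.6 CPM and Rabggtb at 59.2 and 55.6 CPM. In sterol trafficking, storage and efflux, 4 of 9 were higher (-0.02), with Npc2, which carries cholesterol in lysosomes, at 161 and 222 CPM and Erg28 at 77.3 and 87.6 CPM. Among other fatty acid genes 6 of 12 were higher (-0.02), with Tecr, a reductase of the elongation cycle, at 291 and 465 CPM and Hsd17b12 at 103 and 97.8 CPM. In the supply of NADPH and citrate 4 of 7 were higher (0.12), with citrate synthase, Cs, at 138 and 137 CPM and Pgd at 70.5 and 56.1 CPM. In glycerolipid synthesis 3 of 8 were higher (-0.11), with the lipid droplet gene Plin2 at 141 and 128 CPM and Agpat2 at 129 and 89.5 CPM. In fatty acid oxidation 4 of 9 were higher, with a median near 0, Acadl at 253 and 211 CPM and Hadha at 73.1 and 69.7 CPM. In epidermal ceramide synthesis 3 of 10 were higher (-0.13), with Degs1, the dihydroceramide desaturase, at 234 and 175 CPM and the ceramidase gene Asah1 at 52.9 and 61.3 CPM. These shares of higher genes compare with 29.9% of all genes.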

How the data were processed

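Each RNA matrix, as deposited, lists UMI counts of genes in cells, made with Cell Ranger 6.1.2 on mm10 per the submitters' processing notes. Tag matrices, as deposited, list the counts of each tag in each cell. The gene annotation and the tag counting tool are not given in the sources used here, nor whether tag counts are UMIs or reads. Cells with 1000 or more genes and at most 15% mitochondrial UMIs were kept. UMIs were summed per library, cluster or clone and divided by the total (CPM). Ratios carry exact conditional binomial, levels exact Poisson and shares Clopper-Pearson intervals at 95%.

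Cells were clustered with leidenalg 0.10.2 (resolution 0.5) on 2000 variable genes (scanpy 1.11.5), 30 principal components and 15 neighbours, without integration. Doublets were kept, and leaving out the 412 MK and 382 Diff_MK cells of highest Scrublet score was an alternative, beside other scalings, cell filters, weights and depths. Cells were joined into a clone by their most counted tag, which needed 3 counts and 2 times the count of the runner-up. Gene positions are from GENCODE (GRCm38) and promoters from RefSeq (GRCm38.p6). Named genes are all members, the 2 most abundant genes of each lipid list in which none passed 2-fold, the 8 genes most like the sterol sum and 3 leading genes per cluster, of which 2 genes are not reported here. Awat1 and Fabp4 lie outside this rule and were named after their values were seen. Members and lists were chosen with earlier results of these data known. The ratio intervals, the 2-fold call, the thinning to equal depth and the median interval were tested on simulated data. Clustering, clones, correlations and the promoter search were not.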

Additional observations from a re-analysis of the deposited data

How the results depend on the processing

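No paired analysis was possible because each group holds 1 library, and no replicate could be left out. With all deposited barcodes, a stricter cell filter, without the cells of highest Scrublet score and without cells below 0.5% mitochondrial UMIs, each of the 34 member ratios stayed within its counting interval. A minimum of 1 CPM, which cannot move a ratio, gave 13 members at least 2-fold higher in place of 11 and a sterol minus fatty acid median of 0.54 in place of 0.72. The number of members higher ran from 28 outside the S and G2/M phase-like clusters, with 30.9% of all genes higher, to 33 with scaling by the median gene ratio, with 49.2%, and was 22 in the cells of clusters 1, 2 and 4 alone, with 39.0%. Scaling by the median gene ratio (log2 -0.15) gave summed log2 ratios of 1.18 for the sterol branch, 0.77 for the fatty acid branch and 0.27 for the regulators, in place of 1.03, 0.61 and 0.12. Weighting cells equally gave 1.17 and 0.70, and thinned cells 1.14 and 0.67, for the sterol and fatty acid branches. Outside the S and G2/M phase-like clusters the sterol branch had 0.99 and the regulators -0.016, and Lss (-0.10), Dhcr7 (-0.066) and Stard4 (-0.20) were lower. The cells of clusters 1, 2 and 4 alone, chosen after seeing the data, gave 1 member at least 2-fold higher in place of 11, medians of 0.12 (sterol) and 0.038 (fatty acid), 0.079 apart, and summed log2 ratios of 0.079, 0.063 and -0.082. There Mvd (-0.025), Lss (-0.22), Tm7sf2 (-0.24), Sc5d (-0.37), Dhcr7 (-0.49), Acss2 (-0.54), Elovl5 (-0.12), Stard4 (-0.40) and Lpin1 (-0.072) were lower. These pooled values mix the clusters in unlike proportions, with 1421 MK and 500 Diff_MK cells in cluster 1. Within cluster 1 all of these but Dhcr7 and Acss2 were higher in Diff_MK, such as Lss (29.1 and 36.9 CPM) and Stard4 (74.7 and 85.0 CPM). The cause was not tested for any of these. Leiden resolution 1.0 gave a sterol span of 4.94-fold over Diff_MK clusters in place of 5.27-fold. The sterol sum was higher in 7 of 7 shared clones of 50 or more cells, and in 19 of 19 with tags matched over the shorter length. Depth limits Scd1, Tm7sf2, Acss2 and Lpin1, which were below 10 CPM in both libraries.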
